A study of Mus musculus with 4 samples.

Results

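Accessible chromatin was surveyed at 10 genes of the Notch pathway in sorted palatal mesenchyme of E14.5 mouse embryos. The genes were the receptors Notch1, Notch2 and Notch3, the ligands Jag1, Jag2 and Dll1, the target genes Hes1, Hey1 and Hey2, and Maml2, which encodes a coactivator. ATAC-seq, in which a transposase inserts adapters into open DNA, gave 1 peak list per library, for 2 mutants of genotype Shox2Cre/-;Nkx2.5F/F;R26RmTmG and for 2 controls of genotype Shox2Cre/+;Nkx2.5F/F;R26RmTmG. The mutants carried a Cre allele at Shox2, a homeobox gene of the anterior palate, over a null allele, and the controls carried the same Cre allele over an intact one. Mutants and controls alike had floxed alleles on both copies of the homeobox gene Nkx2-5 and carried the R26RmTmG reporter, in which Cre turns on green fluorescence. The controls were therefore not wild type, although their titles call them so, and recombination at Nkx2-5 in the sorted cells was not measured here. Green cells, 50000 for each group, were pooled after sorting. Nothing in the labels says whether libraries of a genotype came from separate embryos, so their spread may be technical.

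In the Notch pathway a ligand on one cell binds a receptor on its neighbour. The receptor is then cut, and its intracellular part enters the nucleus, where it joins the DNA-binding protein RBPJ and a Mastermind coactivator at target genes such as those of the Hes and Hey families of repressors. In palate development the pathway is best known through Jag2, whose loss in mice leads to fusion of the palatal shelves with the tongue and to cleft palate. Notch1 and Notch3 are also widely used in blood vessels, in endothelial and in mural cells.

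Peaks that shared at least 1 bp were merged over the 4 lists into 39843 regions on chromosomes 1 to 19 and X, and each region was given to the nearest protein-coding gene within 100 kb of its midpoint. The 10 genes received 58 regions. A region was called a promoter region when it came within 1 kb of an annotated gene start, or of either gene end for Hes1 and Hey1. By that rule 13 regions were promoter regions and 45 were distal, of which 27 lay inside a gene and 18 outside. No start of Hes1 was at hand, so a promoter region of Hes1 may lie at its 3′ end. Strength is given as the list percentile, the rank of a peak's deposited score within its own library with 100 as the strongest, and as the authors' fold enrichment of the peak. The lists held 29225 and 31832 peaks in the mutants and 30239 and 22966 in the controls, with control 2 the shortest. Because the length of a list shifts its percentiles, genotypes were compared by the shared-region percentile, the rank among the 18904 regions listed in all 4 libraries. Over those regions the median list percentile was 67.6 and 70.2 in the mutants and 68.7 and 58.8 in the controls.

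The number of regions differed widely among the 10 genes. Their median was 5 regions, against a median of 1 over 21631 protein-coding genes. The genes were chosen with earlier results of these data known, so contrasts with all genes are descriptive. Maml2 had 17 regions, Hes1 9, Notch2 7 and Jag1 6. Notch3 and Dll1 had 5 each, Notch1 had 4, Jag2 and Hey2 had 2 each, and Hey1 had 1. Hes1 is only 2.44 kb long and the midpoints of all 9 of its regions lay outside it, while those of 16 of the 17 regions of Maml2 lay within its 413 kb. Only 51 protein-coding genes had as many regions as Maml2 or more. Among the 330 genes at least as long as Maml2 the median was 8 regions, and 41 had at least 17.

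All 10 genes, chosen with earlier results known, had at least 1 listed region, against 68.0% of protein-coding genes. How often a region recurred differed between them. Of the 58 regions, 24 (41.4%) were listed in all 4 libraries, against 47.4% of all regions. A further 9 were listed in 3 libraries, 11 in exactly 2 and 14 in only 1. Notch3, Jag2 and Hey1 had no region in all 4 libraries. The mutant libraries listed 40 and 46 of the 58 regions, and the control libraries 41 and 32. These were 69.0% and 79.3% of the 58 in the mutants and 70.7% and 55.2% in the controls, beside 72.8% and 79.4% of all regions in the mutants and 75.4% and 57.2% in the controls. The lower count of control 2 went with its shorter list.

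**Figure D1:**
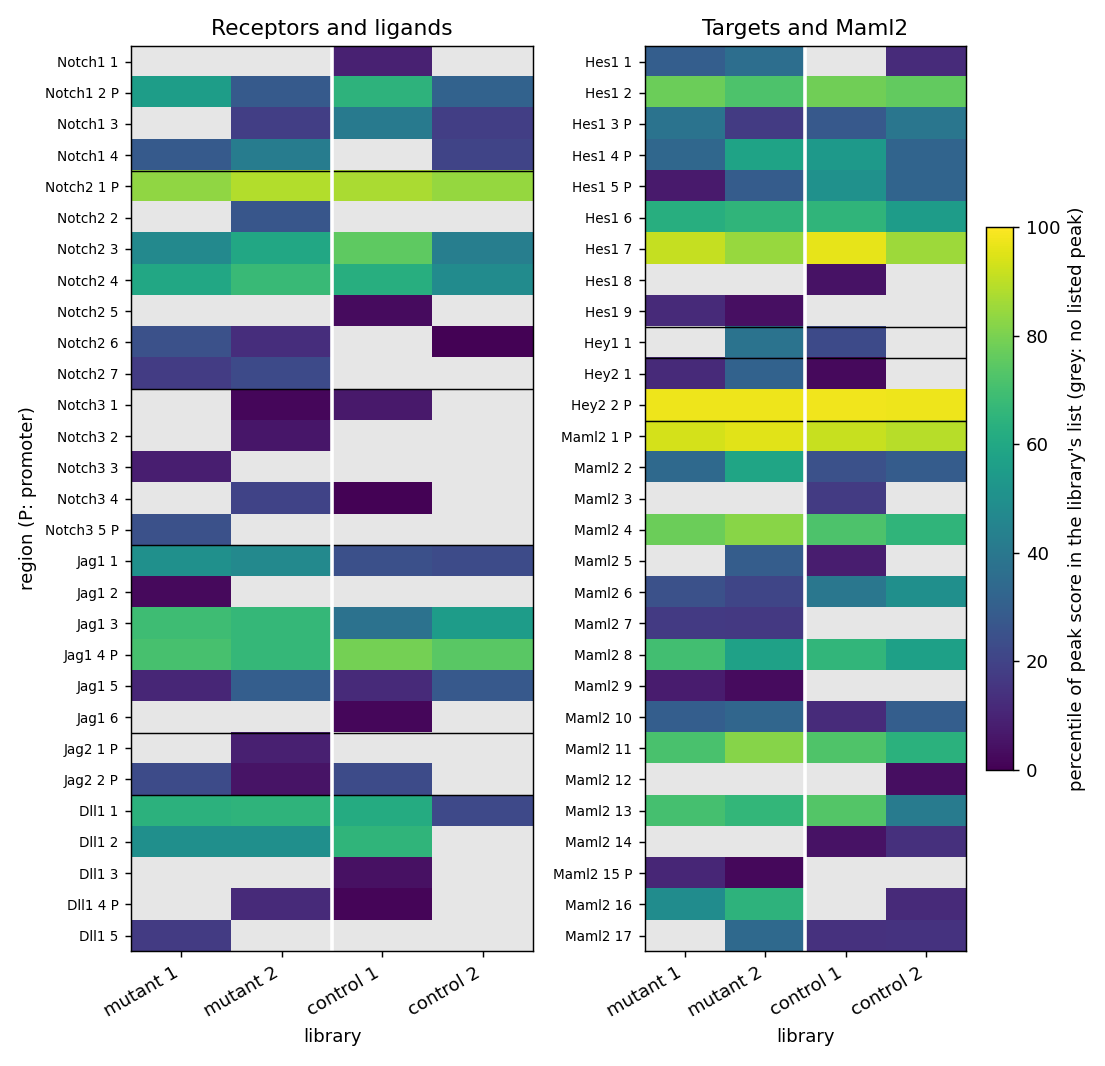
List percentile of each of the 58 regions (rows, numbered along the chromosome within each gene, P for promoter) in the 2 mutant and 2 control libraries (columns). Grey cells have no listed peak. The promoters of Hey2, Notch2 and Maml2 (region 1) are strong in every library, while all 5 regions of Notch3 have gaps.

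Promoter sequences are shown for 5 of the genes because they set strongly listed windows, those of Notch2 and Hey2, beside weakly or unevenly listed ones, those of Notch3, Jag2 and the second start of Maml2, and beside the first start of Maml2, where a second peak lies upstream. Each line holds the 250 bases before the annotated start, 5′ to 3′ on the gene's own strand, from RefSeq on GRCm38.p6. Of the 10 genes, 8 had an entry. The first start of Maml2 here means the first with an entry, at 13297958. The annotated gene begins upstream of it, at 13296561, so the first window lies inside the gene. The windows are chr3:98013288-98013537 (plus strand) for Notch2, chr17:32166891-32167140 (minus) for Notch3, chr12:112929496-112929745 (minus) for Jag2, chr10:30842784-30843033 (minus) for Hey2, and chr9:13297708-13297957 and chr9:13662210-13662459 (both plus) for the starts of Maml2. Capitals mark the core of the RBPJ site, TGGGAA or its longer form GTGGGAA, and the GC box GGGCGG, on either strand.
Notch2: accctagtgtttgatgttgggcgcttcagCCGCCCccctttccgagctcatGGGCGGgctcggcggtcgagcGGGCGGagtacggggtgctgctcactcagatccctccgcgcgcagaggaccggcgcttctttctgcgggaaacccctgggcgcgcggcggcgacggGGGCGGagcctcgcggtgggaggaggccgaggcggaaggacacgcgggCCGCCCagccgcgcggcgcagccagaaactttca
Notch3: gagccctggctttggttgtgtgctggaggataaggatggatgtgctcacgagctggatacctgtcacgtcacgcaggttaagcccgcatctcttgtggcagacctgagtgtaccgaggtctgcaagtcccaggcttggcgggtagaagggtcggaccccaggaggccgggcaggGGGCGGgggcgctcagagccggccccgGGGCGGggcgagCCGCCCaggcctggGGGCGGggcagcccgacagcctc
Jag2: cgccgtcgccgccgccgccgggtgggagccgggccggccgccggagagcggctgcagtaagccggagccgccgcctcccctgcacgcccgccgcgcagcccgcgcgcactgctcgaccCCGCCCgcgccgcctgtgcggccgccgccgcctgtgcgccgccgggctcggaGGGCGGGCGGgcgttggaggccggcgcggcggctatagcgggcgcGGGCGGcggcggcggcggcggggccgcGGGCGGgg
Hey2: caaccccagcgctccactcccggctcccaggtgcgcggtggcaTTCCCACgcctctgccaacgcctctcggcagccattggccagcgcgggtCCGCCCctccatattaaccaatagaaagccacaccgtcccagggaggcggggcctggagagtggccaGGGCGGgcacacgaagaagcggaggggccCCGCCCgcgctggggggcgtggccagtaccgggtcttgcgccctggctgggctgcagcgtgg
Maml2 first start: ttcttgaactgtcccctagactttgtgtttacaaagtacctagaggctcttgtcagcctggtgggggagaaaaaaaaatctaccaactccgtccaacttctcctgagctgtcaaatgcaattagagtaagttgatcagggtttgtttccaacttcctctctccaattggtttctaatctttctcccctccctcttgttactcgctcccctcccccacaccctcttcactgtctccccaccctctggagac
Maml2 second start: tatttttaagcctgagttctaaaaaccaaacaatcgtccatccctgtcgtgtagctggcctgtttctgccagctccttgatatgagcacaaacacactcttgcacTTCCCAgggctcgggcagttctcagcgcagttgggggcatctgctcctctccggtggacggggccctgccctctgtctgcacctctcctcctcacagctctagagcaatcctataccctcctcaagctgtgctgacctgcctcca

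The Hey2 window held a full GTGGGAA on the opposite strand, 207 bases before the start, where the longer form contains the shorter one. That form occurred in 5.31% of the 21045 windows of protein-coding genes, and the shorter TGGGAA in 21.1%. The window before the second Maml2 start held TGGGAA, 145 bases before it. The windows of Notch1, Notch2, Notch3, Jag1, Jag2, Dll1 and the first Maml2 start held neither form. GC boxes numbered 5 each before Notch1, Notch2 and Jag2, 4 before Notch3 and 3 before Hey2, and 43.1% of windows of coding genes held at least 1. The E-box CACGTG and the paired homeodomain core TAATTA were in none of the 10 windows, against 6.70% and 4.24% of windows of coding genes. The N-box CACNAG, to which Hes proteins bind, was in the windows of Notch1, Notch2, Notch3 and the first Maml2 start, against 35.9%. CCAAT was in those of Hey2, the first Maml2 start and 1 of the 2 Dll1 starts, against 35.6%, and TATAAA was in none, against 11.7%. These matches describe letters in a window and not bound sites.

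Base composition varied widely among the windows. The Jag2 window was 87.2% G or C with 54 CpG, above 99.9% of windows of coding genes for GC, and the peak over it was listed weakly in 3 libraries. The first Maml2 window was 48.0% G or C with 2 CpG, below the median of 55.6% and 10 CpG. The peak over it had list percentiles of 60.0 in mutant 1 and 59.0 and 42.7 in the controls. In mutant 2 the value was 95.3, but it belonged to a single peak that reached further upstream and had its summit there, outside the window. The mutant 2 value therefore cannot be compared with the others. Notch2, Hey2 and Notch3 had 72.0%, 71.6% and 68.8% G or C with 34, 22 and 17 CpG. The second Maml2 window, listed in the mutants only, had 55.2% and 6 CpG.

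The promoters fell into a strong set and a weak one, and these crossed the roles of the genes. In all, 6 of the genes, Notch1, Notch2, Jag1, Hes1, Hey2 and Maml2, had a promoter region in all 4 libraries (60%), against 48.4% of protein-coding genes. Of the 13 promoter regions 8 were in all 4 libraries (61.5%), against 84.4% of all promoter regions. The median fold enrichment of those 8 was 4.71 and 3.97 in the mutants and 5.34 and 4.58 in the controls. Over all promoter regions in 4 libraries the medians were 8.30 and 8.66 in the mutants and 8.86 and 8.08 in the controls. Hey2 and Notch2 were above those medians in every library and Maml2 in both mutants only, while Notch1, Jag1 and Hes1 were below them in every library. The Maml2 values are those of the strongest peak of the region, whose summit lay 1239 to 1330 bases before the first start. The separate peak over the window before that start had 4.30 in mutant 1 and 4.41 and 3.92 in the controls, below those medians. In mutant 2 a single peak spanned both places.

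**Figure D2:**
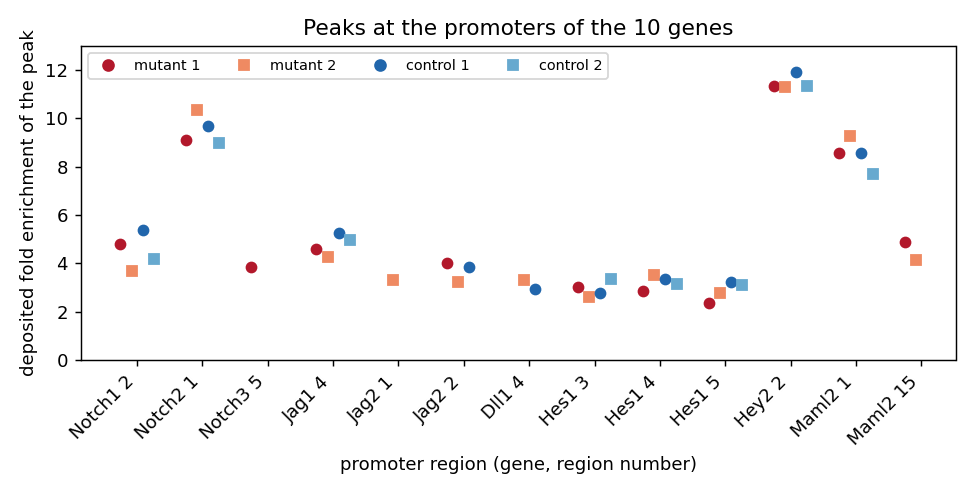
Deposited fold enrichment (linear axis from 0) of the peak in each of the 13 promoter regions, with 1 point per library and no point where none is listed. Regions near either end of Hes1 count as promoter regions. Hey2, Notch2 and the first Maml2 region stand above 7 in all libraries, and every other promoter peak lies below 6.

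Among the receptors, the Notch2 promoter was strong and steady, that of Notch1 was weaker, and that of Notch3 was listed in a single library. Notch2 (chromosome 3, 98013538 to 98150367) had its promoter region at chr3:98013080-98014422, with list percentiles of 83.3 and 88.4 in the mutants and 87.2 and 84.2 in the controls. Its shared-region percentiles were 74.2 and 80.4 in the mutants and 79.5 and 80.9 in the controls, and its summits fell within 61 bp of each other. The mutants and controls overlapped. Notch1 (chromosome 2, 26457902 to 26503822) had its promoter region at chr2:26503137-26504205, with list percentiles of 55.5 and 28.5 in the mutants and 64.7 and 31.5 in the controls. Its fold enrichment was 4.81 and 3.69 in the mutants and 5.40 and 4.19 in the controls. In each genotype the library numbered 1 had the higher value, and the genotypes overlapped.

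At Notch3 (chromosome 17, 32120820 to 32166896), a receptor of vascular smooth muscle and pericytes, the region over the start (chr17:32165355-32167206) was listed in mutant 1 at percentile 24.7 with a fold enrichment of 3.84. Of its 4 distal regions, chr17:32143066-32143629 inside the gene was listed in mutant 1 at percentile 8.54. The other 3 were listed in mutant 2 at percentiles of 1.71, 6.13 and 20.1, and 2 of them also in control 1, at 6.80 and 0.493. Control 2 listed no region of Notch3. All 5 regions were thus weak and uneven, and none separated the genotypes.

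Of the 13 distal regions of the receptors, 6 belonged to Notch2. Its distal region with the highest lowest list percentile, chr3:98062589-98064307, 49.9 kb into the gene, had list percentiles of 59.9 and 67.6 in the mutants and 62.6 and 48.1 in the controls, which overlapped. A neighbour at chr3:98056149-98057271 had shared-region percentiles of 22.5 and 33.8 in the mutants and 60.1 and 31.2 in the controls. Control 1 alone stood high there, and the genotypes overlapped. Notch1 had a region 21.9 kb upstream (chr2:26525384-26526159) at percentiles of 28.2 and 42.1 in the mutants and 20.6 in control 2, with no listed peak in control 1. Another, 4.17 kb upstream (chr2:26507352-26508631), was listed at 18.7 in mutant 2 and at 41.0 and 18.6 in the controls, with none in mutant 1.

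Among the ligands, only Jag1 had a promoter region in all 4 libraries, and its ranks differed between the genotypes without overlap. Jag1 (chromosome 2, 137081451 to 137116520), the ligand altered in Alagille syndrome, had its promoter region at chr2:137116135-137117828. Its shared-region percentiles were 54.9 and 44.3 in the mutants and 66.6 and 68.8 in the controls, a mean difference of −18.1 points. Its fold enrichment was 4.60 and 4.25 in the mutants and 5.28 and 4.97 in the controls. Both measures put both mutants below both controls. The summits lay 836 to 893 bases upstream of the annotated start in all libraries, within 57 bp of each other.

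Inside Jag1, both regions listed in all 4 libraries stood higher in the mutants by at least 1 measure. The region 28.7 kb into the gene (chr2:137087266-137088407) had shared-region percentiles of 25.9 and 17.8 in the mutants and 4.23 and 11.9 in the controls, a mean difference of 13.8 points. Its fold enrichment was 6.75 and 6.36 in the mutants and 5.55 and 5.38 in the controls, and its summits agreed within 22 bp. Both mutants were above both controls on each measure. The region 2.0 kb into the gene (chr2:137114019-137115024), the distal one of Jag1 with the highest lowest list percentile, had shared-region percentiles of 52.3 and 43.9 in the mutants and 11.4 and 45.8 in the controls. Control 2 lay between the mutants, so by this measure the genotypes overlapped. By fold enrichment they did not, at 4.36 and 4.09 in the mutants against 3.04 and 3.83 in the controls. The promoter and the 28.7 kb region therefore went in opposite directions within 1 gene.

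Jag2 and Dll1 had weak promoter peaks. At Jag2 (chromosome 12, 112907803 to 112929812) the region over the start (chr12:112929321-112930384) had list percentiles of 22.7 and 5.20 in the mutants and 22.8 in control 1, with no listed peak in control 2. A second one, chr12:112928352-112929113, was listed in mutant 2 alone at 8.90. Jag2 had no distal region. At Dll1 (chromosome 17, 15367354 to 15376932), a ligand best known from somites and neural progenitors, the promoter region (chr17:15374945-15376699) was listed in mutant 2 at 11.9 and control 1 at 1.34. Neither gene's promoter followed genotype.

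Dll1 differed from the other ligands in having its strong regions far beyond its 3′ end. The region at chr17:15285086-15286170, 81.7 kb from the gene, had list percentiles of 64.4 and 65.1 in the mutants and 61.6 and 22.2 in the controls. Its shared-region percentiles were 45.2 and 41.8 in the mutants and 39.1 and 11.5 in the controls, a mean difference of 18.1 points. Both mutants were above both controls, but the difference was 4.36 points without control 2 and 31.9 without control 1. A region 41.0 kb from the gene (chr17:15325872-15326817), the one with the highest lowest list percentile, had list percentiles of 49.8 and 49.9 in the mutants and 65.6 in control 1, with none listed in control 2.

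Among the target genes, the Hey2 promoter was the strongest promoter of all 10 genes in every library. Hey2 (chromosome 10, 30832359 to 30842783) encodes a repressor best known from heart and vessel development. Its promoter region, chr10:30842367-30843451, had list percentiles of 97.6 and 97.3 in the mutants and 97.7 and 97.5 in the controls. Shared-region percentiles were 96.2 and 95.5 in the mutants and 96.3 and 96.9 in the controls, and the mean difference was −0.76 points. Both mutants were below both controls by this rank, but the full range over the libraries was under 2 points. The summits fell 132 to 169 bases upstream of the start, inside the printed window and between its GTGGGAA and the start. The single distal region of Hey2, chr10:30824901-30825690, was listed at 11.9 and 31.6 in the mutants and 2.5 in control 1.

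Hey1 stood apart from Hey2. Hey1 (chromosome 3, 8663359 to 8667038) had no region within 1 kb of either gene end in any library. Its single region, chr3:8664500-8664996 inside the gene, was listed in mutant 2 at percentile 38.0 and in control 1 at 22.5. With a promoter window of 2.5 kb it would count as a promoter region. The fold enrichment there was 3.27 in mutant 2 and 2.98 in control 1. Mutant 1 and control 2 listed nothing.

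Hes1 had a chain of regions on both sides, with low enrichment at the gene and its highest scores at distal regions. Other distant regions were weak. Hes1 (chromosome 16, 30065357 to 30067796) is the repressor most often used as a readout of Notch signalling. The region over its lower-coordinate end (chr16:30064971-30065533) had list percentiles of 33.5 and 58.1 in the mutants and 53.6 and 32.2 in the controls. The one next to it (chr16:30063408-30064596) had 38.2 and 17.4 in the mutants and 28.1 and 39.4 in the controls. At both of these the genotypes overlapped. Fold enrichment over the 3 promoter regions ran from 2.38 to 3.53 in the mutants and from 2.77 to 3.36 in the controls. These enrichments were among the lowest of each list, at percentiles of at most 1.5 by enrichment, although the same peaks reached percentile 58.1 by score.

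The region beyond the higher-coordinate end of Hes1, counted as promoter only by the rule of either end, separated the genotypes. The strand of Hes1 was not at hand, so this region may lie past the 3′ end of the gene. At chr16:30068182-30068920, 0.755 kb from the gene, shared-region percentiles were 0.701 and 5.27 in the mutants and 24.3 and 20.3 in the controls, a mean difference of −19.3 points. Fold enrichment was 2.38 and 2.76 in the mutants and 3.22 and 3.11 in the controls. A neighbour at chr16:30069915-30070847 had 42.8 and 42.3 in the mutants and 44.9 and 45.6 in the controls by rank, a mean difference of −2.70 points, but 4.38 and 4.61 in the mutants against 4.42 and 4.54 in the controls by enrichment. The first region was lower in both mutants by rank and by enrichment, and its neighbour by rank only.

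The regions of Hes1 with the highest scores were distal, and by rank of score the genotypes overlapped at them. The region 28.9 kb away (chr16:30096106-30097188) had list percentiles of 91.4 and 84.7 in the mutants and 96.1 and 85.4 in the controls, with fold enrichments of 11.5 and 10 in the mutants and 14.7 and 10.3 in the controls. The one 56.1 kb away on the other side (chr16:30008439-30010015) had 77.7 and 72.2 in the mutants and 78.2 and 76.1 in the controls. Its fold enrichment was 8.39 and 8.01 in the mutants and 9.23 and 9.15 in the controls, lower in both mutants. By fold enrichment the 28.9 kb region exceeded every promoter peak of Hes1 in every library.

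Maml2 (chromosome 9, 13296561 to 13709533), a Mastermind coactivator also known from gene fusions in salivary gland tumours, held the largest set of regions. Its promoter region 1 (chr9:13296318-13298434) had shared-region percentiles of 89.8 and 92.1 in the mutants and 86.3 and 87.2 in the controls, a mean difference of 4.24 points. Fold enrichment was 8.56 and 9.27 in the mutants and 8.57 and 7.69 in the controls. Both mutants ranked above both controls by score, while by the unranked enrichment mutant 1 and control 1 were level. The summits lay 1239 to 1330 bases before the first start with a promoter window, at 13297958. They still fell inside the annotated gene, which begins upstream of that start, at 13296561. Distances into Maml2 are counted from the start at 13297958. In mutant 1 and both controls this strong peak ended before the printed window, which a second peak covered in full or, in control 1, in part, at fold enrichments of 4.30 in mutant 1 and 4.41 and 3.92 in the controls. In mutant 2 a single peak at 9.27 spanned both places.

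Inside Maml2, 2 further shared regions separated the genotypes, in opposite directions. The region 127 kb into the gene (chr9:13424748-13425954), the distal one with the highest lowest list percentile, had shared-region percentiles of 65.5 and 70.1 in the mutants and 55.2 and 58.1 in the controls, a mean difference of 11.1 points. The one 186 kb into the gene (chr9:13483912-13484829) had 5.36 and 2.66 in the mutants and 13 and 39.4 in the controls, a mean difference of −22.2 points. There control 2 stood far above control 1, and the difference was −9.01 points without control 2 and −35.4 without control 1. Fold enrichment was 4.95 and 4.80 in the mutants and 6.14 and 7.24 in the controls at that region. The remaining 5 shared regions of Maml2 overlapped between genotypes.

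Of these 5, 3 had list percentiles above 40 in every library. The region 316 kb into the gene (chr9:13613146-13614102) had list percentiles of 71.2 and 81.7 in the mutants and 72.4 and 63.7 in the controls. The one at 347 kb (chr9:13644797-13645857) had 70.4 and 66.1 in the mutants and 73.4 and 41.6 in the controls, and the one at 255 kb (chr9:13552224-13553072) had 69.7 and 57.1 in the mutants and 65.8 and 56.6 in the controls. By shared-region percentile control 2 was lowest at 347 kb, mutant 2 at 255 kb and mutant 1 at 316 kb. Near the promoter, chr9:13306850-13307838 had 34.1 and 58.7 in the mutants and 24.9 and 29.0 in the controls, with only mutant 2 well above the rest by shared-region percentile. Another of the 5, chr9:13603299-13604118, 306 kb into the gene, had 30.1 and 33.0 in the mutants and 12.2 and 30 in the controls. A region listed in 3 libraries, chr9:13681274-13682189, stood at 48.7 and 64.5 in the mutants and 12 in control 2.

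Regions listed in a single library numbered 14, of which 4 and 3 belonged to the mutants and 6 and 1 to the controls. Their list percentiles ran from 1.58 at Jag1 in control 1 to 26.6 at Notch2 in mutant 2. They included 2 promoter regions, those of Notch3 and the weaker one of Jag2.

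**Figure D3:**
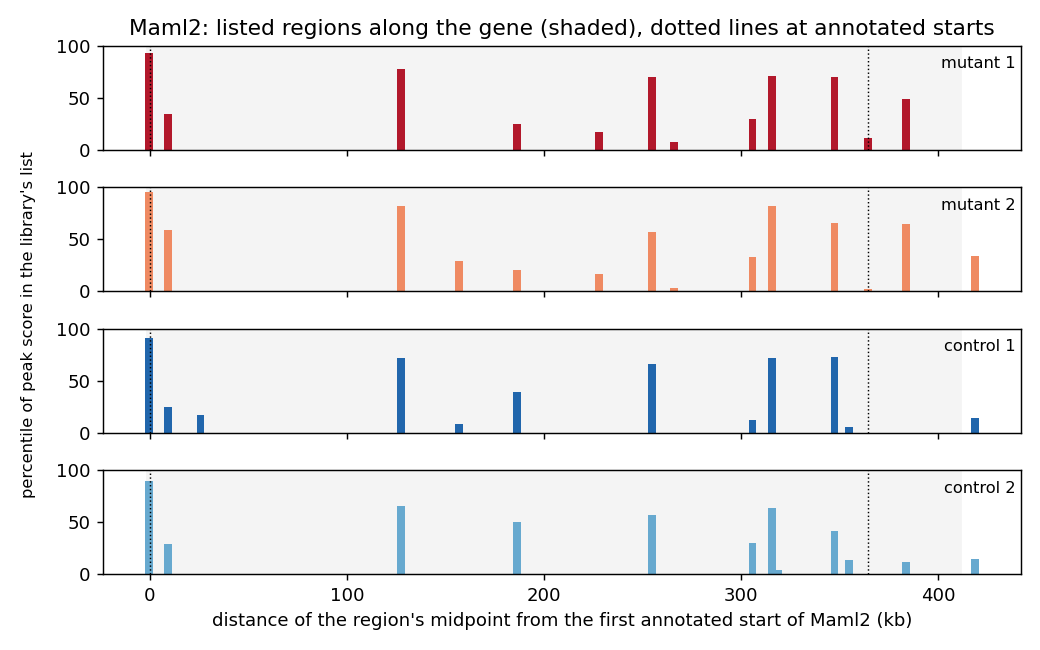
List percentile (0 to 100) of each Maml2 region in the 4 libraries, by distance in kb of its midpoint from the first annotated start. That start is the first with a promoter window and lies inside the gene. The gene is shaded, and dotted lines stand at the annotated starts with a window. The tall bars at the first start and 127, 255, 316 and 347 kb from it recur in every library, and the bars present in a single genotype are short.

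Over all 24 shared regions, separation of the genotypes was about as frequent as in the rest of the genome. Both mutants ranked above both controls at 4 regions (16.7%), at Dll1, Jag1 and Maml2, against 17.6% of all shared regions. Both controls ranked above both mutants at 5 (20.8%), at Jag1, Hes1, Hey2 and Maml2, against 18.0%. With a mean difference of at least 10 points as well, there were 3 in each direction (12.5%), against 7.78% with mutants above and 8.02% with controls above. The median difference, mutant minus control, was −2.79 points over the 24 regions and −0.02 over all shared regions. With 2 libraries against 2, a two-sided exact permutation test of a single region cannot give a p below 0.33, so no region was shown to differ. Shares this close to the background are no result about these genes.

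**Figure D4:**
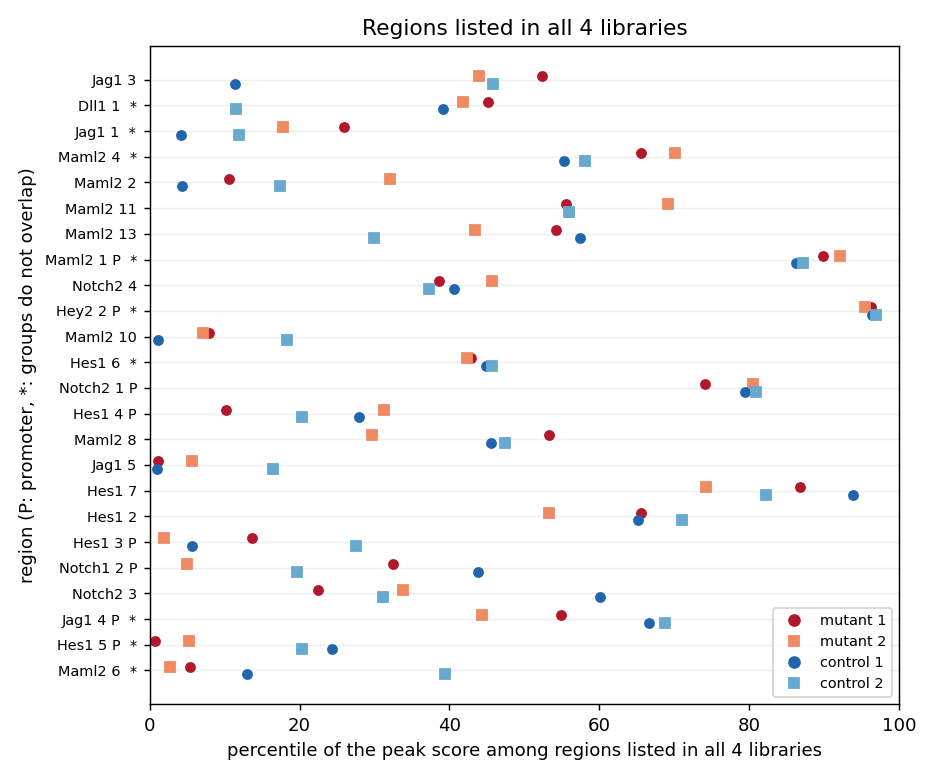
Shared-region percentile of the 24 regions listed in all 4 libraries, ordered by mean difference between genotypes, with the mutants drawn just above the controls on each line. Asterisks mark the 9 regions where the genotypes do not overlap, 4 with mutants higher and 5 with controls higher.

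Distal and promoter regions of these genes ranked closer together than elsewhere. The 16 shared distal regions had median shared-region percentiles of 44.0 and 42.0 in the mutants and 42.8 and 38.4 in the controls. All shared distal regions had 30.9 and 31.2 in the mutants and 30.6 and 30.1 in the controls. The 8 shared promoter regions had 43.7 and 37.8 in the mutants and 55.2 and 48.2 in the controls, against 66.0 and 66.1 in the mutants and 66.4 and 66.5 in the controls over all shared promoter regions. The distal medians of the Notch genes were thus above those of all distal regions in every library, and the promoter medians below. Of the promoter regions 3 belong to Hes1, and of the distal ones 7 belong to Maml2, so these medians lean on 2 genes. Of the Hes1 ones, chr16:30068182-30068920 may lie past the 3′ end of the gene and so may not be a promoter. Summit positions over the 24 regions differed between libraries by 22 to 245 bp, with a median of 90 bp, against 99 bp over all shared regions.

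Regions listed in a single genotype were few and weak. Both mutants and no control listed 5 of the 58 regions (8.62%), against 4.47% of all regions, and both controls and no mutant listed 1 (1.72%), against 1.07%. The 5 lay at Notch2, at Hes1 and, 3 of them, in Maml2. At chr3:98108267-98108937, 95.1 kb into Notch2 but nearest by gene start to Adam30, list percentiles were 17.6 and 22.6 in the mutants. At chr16:30145435-30145969, 77.9 kb from Hes1, they were 11.9 and 4.11. Both were among the weaker peaks of their lists.

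The regions of Maml2 were no stronger. Inside the gene, chr9:13525432-13526213 had list percentiles of 16.9 and 16.4 in the mutants, and chr9:13563659-13564338 had 7.64 and 2.78. The third, chr9:13661796-13662693, covered the second annotated start and had 10.9 and 2.11, with summits 66 to 80 bases before that start and fold enrichments of 4.89 and 4.14. The control-only region, chr9:13652115-13653403, lay 355 kb from the first start, and the region at the second start 364 kb from it. The control-only region had percentiles of 5.06 and 13.8 in the controls. Opposite calls thus stood within 10 kb of each other.

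No mutant-only region was kept when the same number of peaks, 22959, was taken from each list. That step removed peaks below percentile 21.5 in mutant 1 and 27.9 in mutant 2, and the 5 regions reached at most 17.6 and 22.6 there. Of all regions, 2.40% were mutant-only and 2.14% control-only at equal numbers. The control-only region was lost as well, and Notch1 instead had 1 region listed in both controls only, the one 4.17 kb upstream. The numbers in the deposited peak names skip, and the lists hold 25.8% and 26.7% of their numbers in the mutants and 27.8% and 23.8% in the controls. All 73 missing calls at the 58 regions, 12 of them at genotype-specific regions, fell between listed neighbours with at least 1 skipped number, with a median of 4. Most numbers are skipped in every list and no share for other gaps was worked out, so this is no trait of these regions. A peak removed before deposit and a peak never called therefore cannot be told apart, and read counts were not analysed here.

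Other genes of the pathway were read for promoter regions. Of 53 further genes (other receptors and ligands, Hes and Hey relatives, RBPJ cofactors and corepressors, glycosyltransferases, proteases and regulators of endocytosis), 35 had a promoter region in all 4 libraries, 5 in some and 13 in none, against 48.4% of protein-coding genes in all 4. Without a promoter region were Notch4, Dll3, Hes2, Hes3, Hes5, Hes7, Helt, Mfng, Rfng, Psenen, Dtx1, Neurl1b and Tle2, a group with 4 Hes relatives. The 53 genes held 131 regions, among them mutant-only regions at Maml3 and Mib2 and control-only regions at Maml3 and Tle1. Maml3, the relative of Maml2, thus had 1 of each. Their list percentiles were 1.25 and 14.2 in the mutants at the mutant-only region of Maml3, and 10.2 and 7.64 in the controls at its control-only region. Of the 62 regions in all 4 libraries, both mutants ranked higher at 4 and both controls at 12, against the same 17.6% and 18.0%.

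Markers of the sorted tissue and of other cells were read in the same way. Of 10 palate mesenchyme genes all had a promoter region in at least 1 library and 5 in all 4 (Twist1, Twist2, Pdgfrb, Osr2 and Msx1). As background, 48.4% of protein-coding genes had one in all 4. Of 10 endothelial markers 3 had a promoter region in all 4, and Pecam1, Cdh5, Tek, Tie1 and Emcn had none in any. Of 8 pericyte and smooth muscle markers 4 had one in all 4 and Cspg4 had none. Of 8 epithelial markers 3 had one in all 4, and Krt5, Krt14 and Trp63 had none. None of 5 skeletal muscle markers had one in all 4, while 3 of 5 Schwann and glial and 1 of 5 blood and immune markers did. Regions at the endothelial markers numbered 19 and 19 in the mutants and 21 and 13 in the controls, and those at pericyte and smooth muscle markers 14 and 15 in the mutants and 14 and 11 in the controls. Scaled to the regions each library listed, in regions per 10000, the endothelial values were 6.55 and 6.01 in the mutants and 6.99 and 5.70 in the controls. The pericyte and smooth muscle values were 4.83 and 4.74 in the mutants and 4.66 and 4.82 in the controls on that scale. Their part in the Notch regions was not tested, and in bulk peak lists fewer open cells and less open chromatin per cell cannot be told apart.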

How the data were processed

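Open chromatin was profiled (ATAC-seq) in 2 mutant and 2 control libraries, grouped by the genotypes in the labels. The authors deposited 1 peak list per library in a layout of 10 columns without a header, on mm10, per the submitters' processing notes. The deposited score is the whole part of 10 times the peak's −log10 p-value in nearly all rows, and the deposited fold enrichment is a ratio whose background is not stated. No label or header names the aligner, the peak caller or the step that removed peaks, so read depth is unknown, and peak names refer to a merged alignment per library. The deposited −log10 q-value was not used. Peaks were merged, assigned and ranked with Python 3.11.15 and pandas 2.3.3, and merging was checked against bedtools 2.31.1 and tested on simulated data. Where a library had several peaks in a region, the highest score was taken.

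Gene positions and promoter windows were those of RefSeq GRCm38.p6, the same build as mm10. The 10 genes, the further pathway and marker lists, the motifs and the settings were chosen with earlier results of these data known. Named were every promoter region, every region of a single genotype (of the further pathway genes, 1 result is not reported here), the distal region per gene with the highest lowest percentile, and up to 5 separated regions per direction. No comparison was tested, since the peak values are descriptive and the exact permutation test over 2 libraries against 2 cannot give a p below 0.33.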

Additional observations from a re-analysis of the deposited data

How the results depend on the processing

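With the upper 50% of each list there were 22 regions, 7 of them promoter regions and 10 in all 4 libraries, 0 mutant-only and 0 control-only, with 2 shared regions higher in both mutants and 2 higher in both controls. At equal peak numbers there were 38 regions, 0 of them mutant-only, and 3 shared regions were higher in both controls. With percentiles over the full lists 7 shared regions were higher in both mutants and 3 in both controls, against 4 and 5 as reported. Full-list percentiles are shifted by the length of a list. The share of separated regions over all shared regions was worked out only for the setting as reported. Counts of separated regions under the other settings therefore have no background and are no result about these genes. With the nearest gene taken by gene start 3 regions were mutant-only. The Notch2 one then went to Adam30, and chr9:13525432-13526213 in Maml2 to no gene within 100 kb. With a promoter window of 2.5 kb there were 16 promoter regions, against 13 as reported, and the single region of Hey1 was among those added. Leaving out 1 library at a time gave 8 to 9 mutant-only and 1 to 7 control-only regions, beside 2489 to 5532 and 983 to 3320 of all regions, with 7 to 9 shared regions higher in the mutants and 9 to 11 higher in the controls. Without control 2 there were 7 control-only regions, without control 1 2, without mutant 2 3 and without mutant 1 1. A genotype left with 1 library gains calls by construction. Of 86 values under other settings, 57 stayed within 1.5 times the reported count. Replicate numbers are shared between genotypes. Deviations from the genotype means of same-numbered libraries correlated at 0.0273 over 18904 shared regions. Ranks within a library remove any shift of the whole library, so this value cannot show whether same-numbered libraries were paired. With the replicate number as a block, 5 shared regions were higher in the mutants and 8 in the controls.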
